A study of Mus musculus with 16 samples.

Results

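The genes described here encode the motors that move along microtubules, namely the kinesins and cytoplasmic dynein, together with subunits of dynactin. They were chosen by a rule on the symbol alone, set with earlier results of these data known. A protein-coding mouse gene entered if its symbol started with Kif and a digit, Kifc, Klc and a digit, Dync, Dynl or Dctn. In all, 69 of the 55450 genes in the count table had such a symbol, and 66 of them passed the filter on low values, which asked for 10 counts or more in 4 or more of the 16 libraries and left 19363 genes overall. The 66 comprised 43 of 46 kinesins with their light chains, all 16 dynein and all 6 dynactin genes that matched by symbol, and Kif1bp. Kif1bp matches the rule by name but encodes a protein that binds kinesins and is itself no motor. Dynactin subunits with other symbols, such as Actr1a and Capzb, are not among the 66. Kif12 with at most 3 counts in a library, Kif28 with at most 4 and Kif2b with 0 counts in every library were below the filter.

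RNA was sequenced from the striatum of 16 male C57Bl/6 mice aged 14 weeks, with no treatment and with 1 library per mouse. Wild-type and R6/1 mice, which carry a transgene for the first exon of mutant human huntingtin and model Huntington's disease, were each ranked within their genotype by rotarod performance, feet clasping and weight. The 4 highest and the 4 lowest of each genotype were sequenced as the “good” and the “poor” groups, which makes 4 groups of 4 mice. The transgene adds a fragment to the intact mouse gene, and “good” R6/1 mice carry it too.

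Kinesins carry cargo mostly toward the plus end of microtubules, which in axons points to the synapse, and cytoplasmic dynein with its cofactor dynactin carries cargo back toward the cell body. Neurons depend on this traffic for synaptic vesicle precursors, mitochondria, receptors and signalling endosomes. Other kinesins work in dividing cells, where they build the spindle and separate chromosomes, and some serve the cilium together with dynein 2. Huntingtin itself is a scaffold that binds dynein, dynactin and kinesin through its partners.

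The libraries held 16155356 to 24897354 counts each (median 20889934). The column headers number the libraries from 1 to 16. Libraries 1 to 8 held 16155356 to 20250680 counts and libraries 9 to 16 held 21529188 to 24897354. All 4 R6/1 “good” mice lie in libraries 1 to 8, together with 1 “poor” mutant and 3 wild-type mice, so that performance within R6/1 mice and library number can hardly be told apart. Levels are given in CPM, which are counts scaled to the size of the library with TMM factors, and genes are compared with each other only per kilobase of exon. All 12 markers of medium spiny neurons, the main striatal cell type, were measured, and all 12 were lower in R6/1 mice, with a median log2 fold change of -1.53. Markers of several other striatal cells were lower too, with 4 of 6 called for cholinergic interneurons, 4 of 8 for astrocytes and 4 of 8 for oligodendrocytes. For microglia 7 of 8 were called and for endothelial cells 5 of 6. In this comparison 34.2% of all genes tested were called, 17% as lower. Not all cell types went this way. Markers of oligodendrocyte precursors summed to 422.5 ± 25.8 CPM (SD, n = 8) in wild-type mice and 415.6 ± 18.1 CPM in R6/1 mice. Those of neuroblasts summed to 97.4 ± 26.7 CPM in wild-type mice and 120.6 ± 18.6 CPM in R6/1 mice. In bulk tissue, fewer cells of a type and less RNA per cell cannot be told apart. The 5 measured markers of hypothalamic neurons, a sign of neighbouring tissue, summed to between 4.73 and 11.1 CPM in wild-type mice, 2.94 and 4.56 CPM in R6/1 “good” mice and 2.86 and 35.4 CPM in R6/1 “poor” mice. Markers of lateral septal neurons summed to 41.2 to 99.9, 39.7 to 88.0 and 37.3 to 256 CPM in the same order, and those of cortical projection neurons to 12.5 to 815 CPM over the 16 mice. The part of these cells in the motor gene levels was not tested.

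Per kilobase, the most abundant motor gene of the striatum was Kif5a, a neuronal heavy chain of conventional kinesin, at a mean of 544 CPM per kb over the 16 mice. The LC8 light chain gene Dynll2 followed at 247 CPM per kb. Next came Kif5c at 129 CPM per kb, Dynlrb1 at 129, Kif1a at 128 and Klc1 at 126, which lay too close together to be ranked. The lowest of the 66 was Kif14, a kinesin of cytokinesis, at 0.0514 CPM per kb, with 3 to 24 counts in a wild-type library and 6 to 19 in an R6/1 library. Kinesin-1 subunits, Kif1a and dynein light chains thus made up the top of the range, and kinesins of cell division the bottom, with Kif14, Kif18b, Kif18a, Kif2c and Kif20b in the last 5 places.

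R6/1 against wild-type mice asked which motor genes differ with the transgene. In this comparison of 8 against 8 mice, 24 of the 66 genes were higher and 8 were lower in R6/1 mice by edgeR's quasi-likelihood test at an adjusted p of 0.05. Among all genes tested 34.2% were called, 17.2% as higher and 17% as lower, beside 36.4% and 12.1% of the motor genes. This is a description of the list and not a test of it. DESeq2 called 25 motor genes higher and 9 lower, and 35.8% of all genes. Within libraries 1 to 8 alone 7 motor genes were called higher and 4 lower, beside 10.8% and 11.8% of all genes. Within libraries 9 to 16 alone these were 9 and 4, beside 7.35% and 10.2% of all genes. The median log2 fold change was 0.13, beside 0.02 over all genes tested, 0.10 within libraries 1 to 8 and 0.13 within libraries 9 to 16. The changes were small: 23 of the 32 called genes changed by less than 0.5 on the log2 scale, and none of the 66 changed by more than 0.79. The levels of R6/1 and wild-type mice did not overlap for 6 of the 66 genes, with Kif17 and Kif5c lower and Kif1bp, Dctn4, Kifc1 and Kif21a higher in all 8 R6/1 mice. Among all genes tested 9.07% did not overlap, with 4.05% higher and 5.03% lower in R6/1 mice. By class, 13 of 43 kinesins were higher and 7 lower, 8 of 16 dynein subunits higher and 1 lower, and 2 of the 6 Dctn subunits of dynactin higher and 0 lower. Whether the classes differ from each other was not tested.

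**Figure D1:**
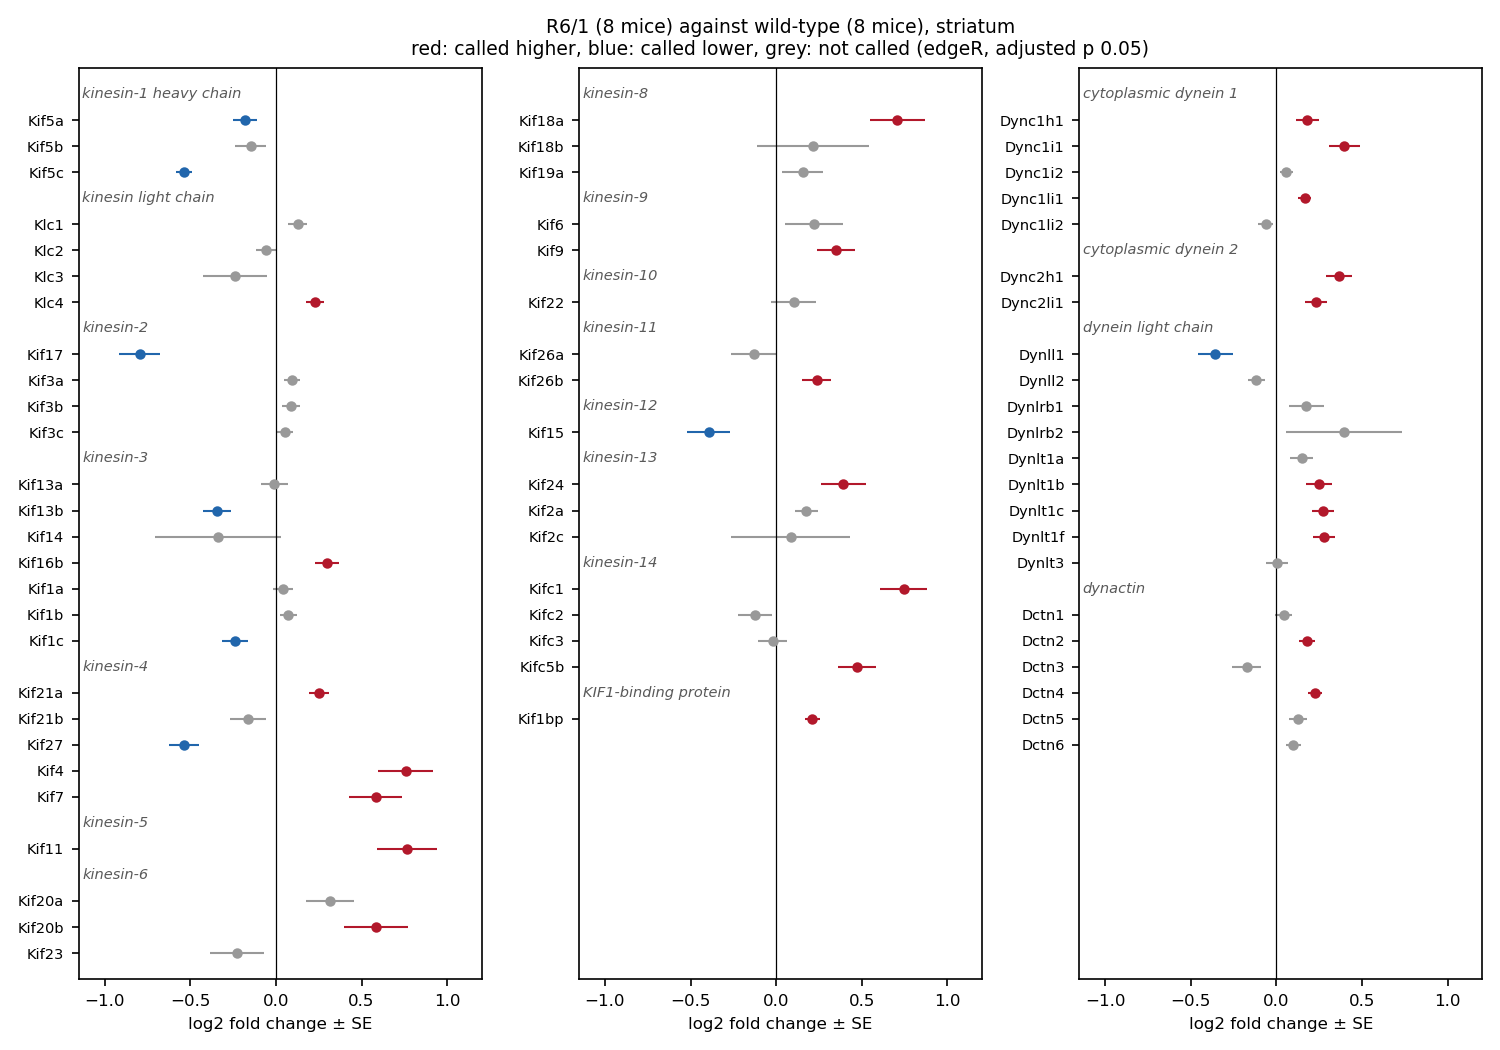
Log2 fold change of each of the 66 motor genes in R6/1 against wild-type mice (horizontal axis, point with standard error), ordered by family. The 8 genes called lower, in blue, include Kif17 at -0.79 and Kif5c at -0.54, and the 24 called higher, in red, reach 0.77 for Kif11, a kinesin of the spindle.

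Kif5c (GRCm38 chr2:49619298-49774778, plus strand), a heavy chain of kinesin-1 that is mainly neuronal, was lower in every R6/1 mouse than in any wild-type mouse. Its levels were 1149, 1025, 1119 and 1011 CPM in wild-type “good” mice and 1088, 1171, 1115 and 1060 CPM in wild-type “poor” mice. They were 764, 775, 739 and 745 CPM in R6/1 “good” mice and 694, 690, 780 and 835 CPM in R6/1 “poor” mice. The highest R6/1 mouse stayed well below the lowest wild-type mouse, and the ranges of the 2 R6/1 groups overlapped. The log2 fold change was -0.54 ± 0.05 (SE, n = 8 per genotype, edgeR adjusted p = 3.0e-07), which is the smallest adjusted p among the 66 genes. It was -0.55 within libraries 1 to 8 and -0.51 within libraries 9 to 16.

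The other heavy chains of kinesin-1 moved less. Kif5a, the most abundant motor gene, had a lowest, median and highest level of 3450, 4018 and 4585 CPM in wild-type mice and 3137, 3429 and 4111 CPM in R6/1 mice. These ranges overlapped over most of their length. Its log2 fold change was -0.18 ± 0.07 (edgeR adjusted p = 0.0467), a call that was lost on leaving out any of 9 of the 16 mice: wild-type “good” 1 or 3, wild-type “poor” 1 or 3, R6/1 “good” 1 or 4, or R6/1 “poor” 1, 2 or 3. Kif5b, the heavy chain found in most cell types, had -0.15 ± 0.09 and did not pass the test (edgeR adjusted p = 0.234).

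The make-up of the kinesin-1 heavy chains differed accordingly. Per kilobase, Kif5c made up 18.3, 20.7, 19.0 and 19.7% of the 3 heavy chains in wild-type “good” mice and 19.0, 21.7, 18.2 and 19.7% in wild-type “poor” mice. It made up 17.96, 15.5, 14.4 and 16.4% in R6/1 “good” mice and 15.3, 15.5, 16.6 and 15.6% in R6/1 “poor” mice. Every R6/1 mouse was below every wild-type mouse, though R6/1 “good” mouse 1 came close. The Kif5a share was higher on average, at 73.5% ± 1.51 (SD, n = 8) in wild-type mice and 76.7% ± 1.21 (SD, n = 8) in R6/1 mice.

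**Figure D2:**
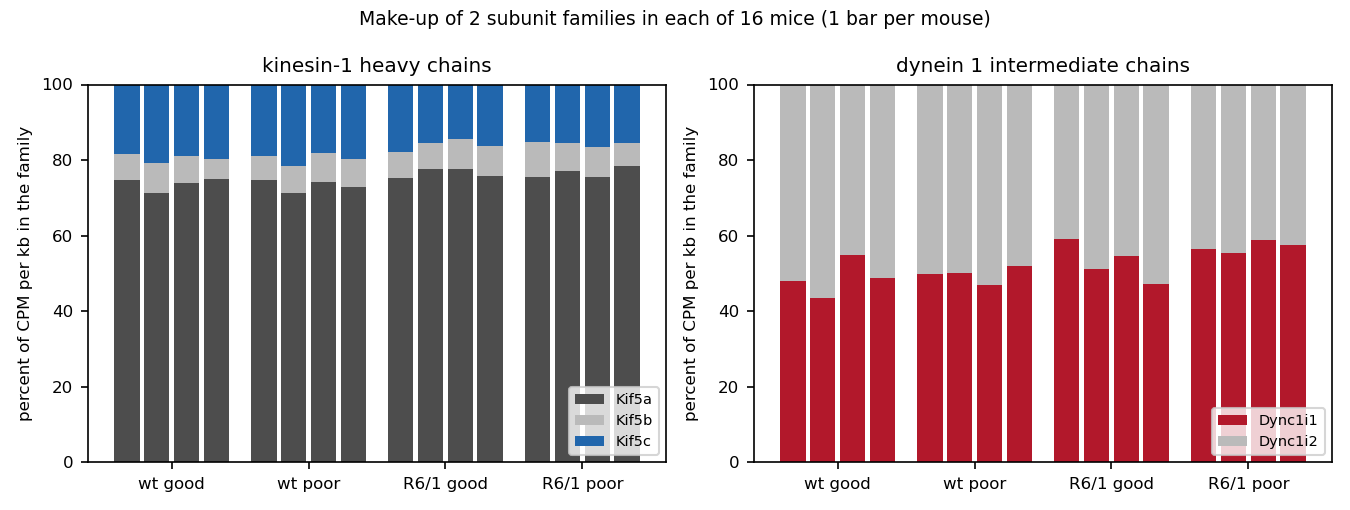
Percent of the CPM per kb of a subunit family that each gene contributes (vertical axis), with 1 bar per mouse in the 4 groups, for the 3 kinesin-1 heavy chains and the 2 intermediate chains of dynein 1. The Kif5c share lies at 14.4 to 17.96% in R6/1 mice and 18.2 to 21.7% in wild-type mice, and the Dync1i1 share averages 55.0% in R6/1 and 49.3% in wild-type mice.

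The light chains, which link kinesin-1 to cargo, did not follow the heavy chains. Klc4 was higher in R6/1 mice, with a lowest, median and highest level of 20.6, 22.7 and 23.9 CPM in wild-type mice and 23.1, 26.2 and 29.8 CPM in R6/1 mice. Only the lowest R6/1 mouse lay within the wild-type range, and the log2 fold change was 0.23 ± 0.05 (edgeR adjusted p = 0.00297). Klc1, the most abundant light chain, had 0.13 ± 0.06, Klc2 had -0.06 ± 0.06 and Klc3, the rarest, had -0.24 ± 0.19. None of these passed the edgeR test, with adjusted p of 0.0871 for Klc1, 0.519 for Klc2 and 0.347 for Klc3. Klc3 shares 744 bases of exon with Ercc2 on the opposite strand, and the strand setting of the counting is not given in the sources used here.

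Kif17 (GRCm38 chr4:138250435-138301967, plus strand), a kinesin-2 that carries NMDA receptors along dendrites, had the largest change of the 66 genes. Its levels were 75.5, 70.1, 57.1 and 66.6 CPM in wild-type “good” mice and 68.6, 56.6, 63.3 and 55.4 CPM in wild-type “poor” mice. They were 38.2, 44.8, 36.1 and 52.2 CPM in R6/1 “good” mice and 25.9, 32.0, 28.7 and 38.1 CPM in R6/1 “poor” mice. No R6/1 mouse reached the wild-type range, and 3 of the 4 R6/1 “poor” mice lay below all R6/1 “good” mice. The log2 fold change was -0.79 ± 0.12 (edgeR adjusted p = 6.9e-05), at -0.80 within libraries 1 to 8 and -0.97 within libraries 9 to 16. Kif17 shares 74 bases of exon with Sh2d5 on the same strand, which had more counts and a log2 fold change of -1.12 in the same comparison. The part of the Sh2d5 reads in the Kif17 counts was not tested.

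The other kinesin-2 motors did not pass the test. Kif3a and Kif3b, the motor pair of the heterotrimeric kinesin-2, had log2 fold changes of 0.10 ± 0.05 (edgeR adjusted p = 0.124) and 0.09 ± 0.05 (edgeR adjusted p = 0.206), and their neuronal relative Kif3c had 0.06 ± 0.05 (edgeR adjusted p = 0.393). Kif3c shares 2617 bases of exon with an antisense gene. Per kilobase, Kif17 made up 17.6% ± 1.93 (SD, n = 8) of the 4 kinesin-2 motors in wild-type mice and 10.4% ± 2.28 (SD, n = 8) in R6/1 mice, with ranges of 14.9 to 20.1% and 7.41 to 14.5%.

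The promoters of Kif5c and Kif17, the only genes with lower levels in all 8 R6/1 mice, are shown because both hold the palindrome of the cyclic AMP response element, TGACGTCA, in capitals. They are the 250 bases before the RefSeq start on GRCm38.p6, 5′ to 3′ on the plus strand, for Kif5c at chr2:49619036-49619285 and for Kif17 at chr4:138262001-138262250. The second region lies inside the Kif17 gene as GENCODE annotates it, which starts further upstream.
Kif5c: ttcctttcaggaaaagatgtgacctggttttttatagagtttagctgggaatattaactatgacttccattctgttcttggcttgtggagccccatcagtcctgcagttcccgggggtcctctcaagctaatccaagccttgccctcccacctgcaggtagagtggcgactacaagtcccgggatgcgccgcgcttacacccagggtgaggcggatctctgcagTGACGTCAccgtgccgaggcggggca
Kif17: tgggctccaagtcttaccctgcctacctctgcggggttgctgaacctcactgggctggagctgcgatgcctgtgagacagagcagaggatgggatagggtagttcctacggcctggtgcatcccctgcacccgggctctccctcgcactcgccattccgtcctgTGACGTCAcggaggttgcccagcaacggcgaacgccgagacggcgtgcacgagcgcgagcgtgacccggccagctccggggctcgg
The letters begin 26 bases before the start in Kif5c and 86 bases before it in Kif17. In windows of 250 bases before to 50 bases after the start, 1.79% of all 32851 promoters in the RefSeq table held these letters. RefSeq promoters were matched to 49 of the 66 motor genes, 7 of them with 2 promoters, and 5 of the 49 held the letters in any promoter. Beside Kif5c and Kif17 these were Kif18a, called higher, and Dctn3 and Klc1, not called, so that the letters stood in genes of every kind of call. The GC box, GGGCGG on either strand, stood in 34 of the 49 genes and in 35.7% of all promoters. A match of letters is a description and not a binding site.

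**Figure D3:**
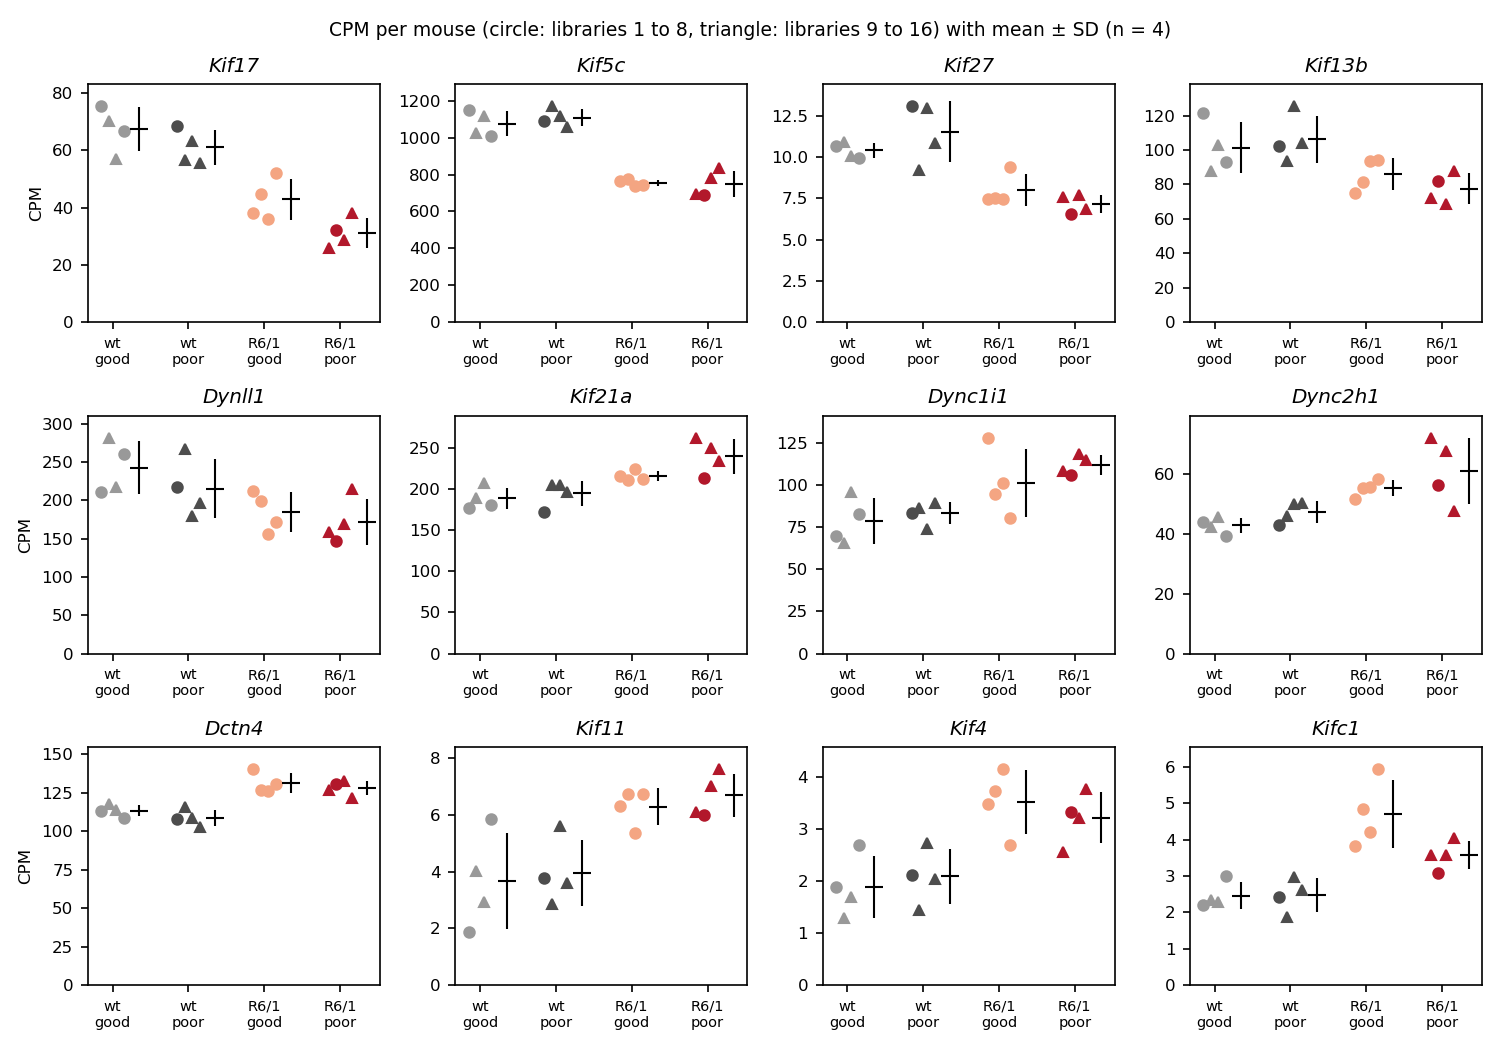
CPM of 12 motor genes in each mouse (vertical axis from 0), by group, with circles for libraries 1 to 8, triangles for libraries 9 to 16 and the mean with SD of each group of 4 mice. Kif17 and Kif5c are lower in all 8 R6/1 mice, whereas Kif21a, Dctn4 and Kifc1 are higher in all 8.

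Among the kinesin-3 motors, which carry vesicles and endosomes, the main axonal carriers did not pass the test and 3 less abundant genes did. Kif1a and Kif1b, which carry synaptic vesicle precursors, had log2 fold changes of 0.04 ± 0.06 (edgeR adjusted p = 0.636) and 0.07 ± 0.05 (edgeR adjusted p = 0.294). Kif13b, a carrier of scaffold and lipid-bound cargo, had a lowest, median and highest level of 87.9, 102 and 126 CPM in wild-type mice and 68.5, 81.8 and 94.1 CPM in R6/1 mice. It was lower in R6/1 mice by -0.34 ± 0.08 on the log2 scale (edgeR adjusted p = 0.00336), with ranges that overlapped at their ends. Kif1c, a carrier of dense core vesicles and integrins, was also lower, with 138, 156 and 188 CPM in wild-type mice and 104, 139 and 146 CPM in R6/1 mice (log2 fold change -0.24 ± 0.07, edgeR adjusted p = 0.0189). Kif16b, which moves early endosomes, was higher, with 14.2, 16.6 and 20.2 CPM in wild-type mice and 19.6, 20.97 and 23.4 CPM in R6/1 mice (log2 fold change 0.30 ± 0.07, edgeR adjusted p = 0.00239).

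In the kinesin-4 family, Kif21a, which restrains microtubule growth, was higher in all 8 R6/1 mice. Its lowest, median and highest levels were 172, 192 and 206 CPM in wild-type mice and 210, 220 and 262 CPM in R6/1 mice. The gap between the groups was narrow, and the log2 fold change was 0.25 ± 0.06 (edgeR adjusted p = 0.00238). Its relative Kif21b had -0.16 ± 0.11 and did not pass the test (edgeR adjusted p = 0.258). Kif26b, a kinesin-11 that acts in cell adhesion and polarity, was called higher at 0.24 ± 0.08 (edgeR adjusted p = 0.0376), a call lost without any of 11 of the 16 mice: wild-type “good” 2, 3 or 4, wild-type “poor” 1, 2 or 4, R6/1 “good” 3 or 4, or R6/1 “poor” 1, 2 or 3.

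Kif1bp, whose product binds kinesin motor domains and limits their hold on microtubules, was higher in all 8 R6/1 mice. Its lowest, median and highest levels were 123, 136 and 142 CPM in wild-type mice and 146, 155 and 167 CPM in R6/1 mice. The groups did not overlap, and the log2 fold change was 0.21 ± 0.05 (edgeR adjusted p = 0.00148).

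Cytoplasmic dynein 1 is built on the heavy chain Dync1h1, with intermediate chains that bind dynactin and light intermediate chains that bind cargo adaptors. In the intermediate chain pair, Dync1i1, the form enriched in neurons, was higher in R6/1 mice and Dync1i2, the more widespread form, was not called. The difference between these changes was not tested. Dync1i1 had 69.5, 65.5, 95.9 and 82.9 CPM in wild-type “good” mice and 83.1, 86.3, 74.1 and 89.3 CPM in wild-type “poor” mice. It had 128, 94.4, 101 and 80.2 CPM in R6/1 “good” mice and 108, 106, 118 and 115 CPM in R6/1 “poor” mice. All 4 R6/1 “poor” mice lay above every wild-type mouse, and R6/1 “good” mice 2 and 4 lay inside the wild-type range. The log2 fold change over all mice was 0.40 ± 0.09 (edgeR adjusted p = 0.00241), beside 0.06 ± 0.04 for Dync1i2 (edgeR adjusted p = 0.278). Per kilobase, Dync1i1 made up 49.3% ± 3.404 (SD, n = 8) of the pair in wild-type mice and 55.0% ± 4.03 (SD, n = 8) in R6/1 mice.

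Of the light intermediate chains, Dync1li1 was called and Dync1li2 was not, and the difference within the pair was not tested. Dync1li1 had a lowest, median and highest level of 70.5, 73.2 and 77.4 CPM in wild-type mice and 75.3, 83.4 and 86.5 CPM in R6/1 mice. It was higher in R6/1 mice by 0.16 ± 0.04 on the log2 scale (edgeR adjusted p = 0.00327), with overlap at the ends of the ranges, whereas Dync1li2 had -0.06 ± 0.05 (edgeR adjusted p = 0.308). The heavy chain gene Dync1h1 had 396, 480 and 527 CPM in wild-type mice and 470, 524 and 643 CPM in R6/1 mice. Its log2 fold change was 0.18 ± 0.07 (edgeR adjusted p = 0.0416), and the call was lost without any of 10 of the 16 mice: wild-type “good” 2, 3 or 4, wild-type “poor” 1 or 2, R6/1 “good” 1, 2 or 4, or R6/1 “poor” 2 or 3.

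Of the 9 light chain genes, 3 were higher, 1 was lower and 5 were not called, beside 17.2% of all genes higher and 17% lower. Dynll1, an LC8 light chain that is also a hub for many proteins beside dynein, was lower, with 179, 218 and 282 CPM as the lowest, median and highest level in wild-type mice and 146, 170 and 215 CPM in R6/1 mice. The ranges overlapped, and the log2 fold change was -0.36 ± 0.10 (edgeR adjusted p = 0.0112). Its paralog Dynll2, which is several-fold more abundant per kilobase, had -0.12 ± 0.05 and did not pass the test (edgeR adjusted p = 0.067). The Tctex1 genes Dynlt1b, Dynlt1c and Dynlt1f were higher by 0.25, 0.27 and 0.28 on the log2 scale, and Dynlt1a by 0.15 without a call. These 4 genes lie close together on chromosome 17 as near-identical copies, so that reads may be split among them. With these 4 merged as 1 gene, and Kifc1 with its copy Kifc5b as another, 21 of 62 motor genes were higher and 8 lower, and 6 of 13 dynein genes were higher and 1 lower. Of the light chain genes 1 of 6 was then higher and 1 lower. Dynlt1a also shares 580 bases of exon with Tmem181a on the opposite strand. The roadblock light chains Dynlrb1 and Dynlrb2 and the Tctex1 relative Dynlt3 were not called, with log2 fold changes of 0.18 ± 0.10, 0.40 ± 0.34 and 0.00 ± 0.06.

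Dynactin joins dynein to its cargo and keeps the motor moving. Dctn4, a subunit at the pointed end of its filament, had a lowest, median and highest level of 103, 111 and 117 CPM in wild-type mice and 122, 129 and 140 CPM in R6/1 mice. The groups did not overlap, and the log2 fold change was 0.22 ± 0.04 (edgeR adjusted p = 2.9e-04). Dctn2, the dynamitin subunit, was the other call, with 175, 185 and 213 CPM in wild-type mice and 201, 209 and 241 CPM in R6/1 mice (log2 fold change 0.18 ± 0.05, edgeR adjusted p = 0.00749). Dctn1, the p150Glued subunit that contacts both dynein and the microtubule, did not pass the test, with 0.04 ± 0.05 (edgeR adjusted p = 0.545). Dctn3, Dctn5 and Dctn6 had -0.17 ± 0.09, 0.13 ± 0.05 and 0.10 ± 0.05, with edgeR adjusted p of 0.129, 0.0714 and 0.0998.

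The levels summed by complex are given as a description. The 3 kinesin-1 heavy chains summed to 5569 ± 466 CPM (SD, n = 8) in wild-type mice and 4712 ± 372 CPM (SD, n = 8) in R6/1 mice. The 5 genes of cytoplasmic dynein 1 summed to 1138 ± 49.8 CPM in wild-type mice and 1229 ± 48.1 CPM in R6/1 mice, and the 6 Dctn genes of dynactin to 856 ± 23.1 CPM and 913 ± 36.1 CPM. The dynactin sum leaves out subunits without a Dctn symbol, such as Actr1a and Capzb. The 2 genes of dynein 2 summed to 65.5 ± 4.39 CPM and 82.1 ± 9.04 CPM. The dynein 1 sum leaves out the light chains, whose 9 genes summed to 1380 ± 79.4 CPM and 1320 ± 41.6 CPM, so that all 16 dynein genes summed to 2584 ± 57.7 CPM in wild-type mice and 2631 ± 52.3 CPM in R6/1 mice. The ranges of the genotypes overlapped for each of these sums.

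Of the 13 kinesins of cell division, 6 were higher, 1 was lower and 6 were not called, with a median log2 fold change of 0.32. Among all genes tested 17.2% were called higher and 17% lower. With Kifc1 and its near copy Kifc5b merged, 5 of 12 were higher and 1 lower. The 6 higher genes were Kif11, which pushes spindle poles apart, Kif4, a chromosome-bound kinesin, Kifc1 and Kifc5b, minus-end motors that focus poles, Kif18a, which aligns chromosomes, and Kif20b, which acts in cytokinesis. All are rare in the striatum, with 36 to 186 counts in a library for Kif11 and 10 to 49 for Kif20b. Kif11 had 1.88, 4.01, 2.91 and 5.86 CPM in wild-type “good” mice and 3.78, 2.85, 5.59 and 3.60 CPM in wild-type “poor” mice. It had 6.32, 6.72, 5.37 and 6.74 CPM in R6/1 “good” mice and 6.11, 5.99, 7.01 and 7.61 CPM in R6/1 “poor” mice. The highest 2 wild-type mice reached the level of the lowest R6/1 mouse, and the wild-type mice spread more widely. The log2 fold change was 0.77 ± 0.18 (edgeR adjusted p = 0.00249).

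Kifc1 was the one gene of this group with no overlap. It had 2.19, 2.35, 2.28 and 3.01 CPM in wild-type “good” mice and 2.42, 1.89, 2.98 and 2.62 CPM in wild-type “poor” mice. It had 3.82, 4.86, 4.21 and 5.94 CPM in R6/1 “good” mice and 3.59, 3.09, 3.57 and 4.05 CPM in R6/1 “poor” mice. All R6/1 mice were above all wild-type mice, with the “good” mice mostly above the “poor” mice. The log2 fold change was 0.74 ± 0.14 (edgeR adjusted p = 4.5e-04), beside 0.47 ± 0.11 for Kifc5b (edgeR adjusted p = 0.00295), and reads of this pair of copies on chromosome 17 may be shared between them.

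Kif4 had a lowest, median and highest level of 1.29, 1.96 and 2.74 CPM in wild-type mice and 2.56, 3.41 and 4.15 CPM in R6/1 mice (log2 fold change 0.76 ± 0.16, edgeR adjusted p = 0.00126). The ranges overlapped at their ends. Kif4 shares 832 bases of exon with the more abundant Pdzd11 on the opposite strand, whose log2 fold change was 0.10. Kif18a was higher at 0.71 ± 0.16 (edgeR adjusted p = 0.00225) and Kif20b at 0.59 ± 0.19 (edgeR adjusted p = 0.0211), the latter call being lost without R6/1 “poor” mouse 3. Kif15, which shares the spindle task of Kif11, went the other way, with 2.58, 3.48 and 4.13 CPM as the lowest, median and highest level in wild-type mice and 2.26, 2.49 and 3.33 CPM in R6/1 mice (log2 fold change -0.39 ± 0.13, edgeR adjusted p = 0.0213). Kif2c, Kif14, Kif18b, Kif20a, Kif22 and Kif23 were not called.

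Summed over the 13 genes, the kinesins of cell division reached 29.8 ± 4.49 CPM (SD, n = 8) in wild-type mice and 38.2 ± 2.11 CPM (SD, n = 8) in R6/1 mice. The sums ran from 22.4 to 36.8 CPM and from 35.4 to 41.8 CPM. The 8 other markers of dividing cells, among them Mki67 and Top2a, summed to 21.3 ± 7.25 CPM (SD, n = 8) in wild-type mice and 21.9 ± 2.46 CPM (SD, n = 8) in R6/1 mice. Of these 8 markers 1 was called higher, Birc5 at 0.73, and 0 were called lower, whereas Mki67 had -0.18 (edgeR adjusted p = 0.414) and Top2a 0.19 (edgeR adjusted p = 0.641). The difference between the kinesins and these markers was not tested, nor was the part of dividing cells in the kinesin levels.

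**Figure D4:**
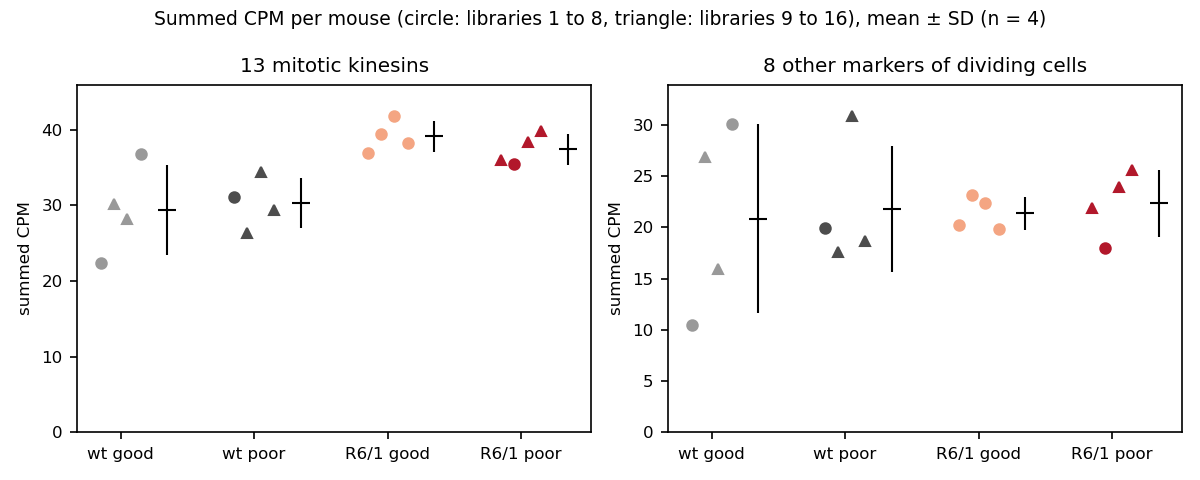
Summed CPM per mouse (vertical axis from 0) of the 13 kinesins of cell division on the left and of 8 other markers of dividing cells on the right, by group, with the mean and SD of each group of 4 mice. The left sums are 35.4 to 41.8 CPM in R6/1 and 22.4 to 36.8 CPM in wild-type mice, whereas on the right the R6/1 mice, at 17.96 to 25.6 CPM, lie within the wild-type range of 10.5 to 30.9 CPM.

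Promoters of Kif11, which was higher, and of its functional partner Kif15, which was lower, are shown because both carry the cell cycle genes homology region, TTTGAA or its reverse complement TTCAAA, at the same place. They are the 250 bases before the RefSeq start on GRCm38.p6, 5′ to 3′ on the plus strand, for Kif11 at chr19:37376132-37376381 and for Kif15 at chr9:122950831-122951080. Capitals mark this element and, in Kif11, the CCAAT box read on the reverse strand.
Kif11: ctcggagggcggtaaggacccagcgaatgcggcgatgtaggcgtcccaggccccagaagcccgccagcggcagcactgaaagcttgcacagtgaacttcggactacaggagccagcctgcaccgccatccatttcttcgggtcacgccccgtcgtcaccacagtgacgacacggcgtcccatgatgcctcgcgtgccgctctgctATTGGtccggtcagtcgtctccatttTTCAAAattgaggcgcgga
Kif15: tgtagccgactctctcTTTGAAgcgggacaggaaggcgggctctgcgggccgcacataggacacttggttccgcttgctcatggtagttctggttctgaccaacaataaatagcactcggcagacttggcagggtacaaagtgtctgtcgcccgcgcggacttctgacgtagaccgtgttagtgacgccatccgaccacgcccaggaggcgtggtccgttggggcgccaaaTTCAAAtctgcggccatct
In each gene TTCAAA begins 19 bases before the start, and Kif15 holds a further TTTGAA 234 bases before it. In the windows of 300 bases, searched on both strands, 17.9% of all promoters held this element, and 11 of the 12 kinesins of cell division with a promoter held it, Kif18a being the exception. The CCAAT box stood in 37.4% of all promoters and in 8 of these 12 genes. The 11 genes include Kif11, Kif4, Kif20b, Kifc1 and Kifc5b, called higher, Kif15, called lower, and Kif2c, Kif14, Kif18b, Kif22 and Kif23, not called. The element thus stood in genes called higher, in genes not called and in Kif15, the only gene of this group called lower.

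A list of 10 of the 66 genes that serve the cilium held 5 higher and 2 lower genes, with a median log2 fold change of 0.29. Among all genes tested 17.2% were called higher and 17% lower. Kif3a and Kif3b, whose heterotrimeric kinesin-2 also works in cilia, were left out of this list and were not called. The 2 lower genes were Kif27 and Kif17, which also works in cilia. The summed level of these 10 genes went the other way from the median, at 162 ± 8.83 CPM (SD, n = 8) in wild-type mice and 154 ± 11.4 CPM (SD, n = 8) in R6/1 mice, with overlapping ranges. This fall rests on Kif17, whose mean was 64.15 CPM in wild-type mice and 36.99 CPM in R6/1 mice. Both genes of dynein 2, the motor that returns cargo from the ciliary tip, were higher. The heavy chain gene Dync2h1 had 43.9, 42.4, 45.5 and 39.4 CPM in wild-type “good” mice and 42.9, 45.8, 50.1 and 50.3 CPM in wild-type “poor” mice. It had 51.7, 55.2, 55.7 and 58.2 CPM in R6/1 “good” mice and 72.1, 56.3, 67.7 and 47.7 CPM in R6/1 “poor” mice. All but 1 R6/1 mouse were above all wild-type mice, and R6/1 “poor” mice spread most. The log2 fold change was 0.37 ± 0.08 (edgeR adjusted p = 0.00125), beside 0.23 ± 0.06 for its light intermediate chain Dync2li1 (edgeR adjusted p = 0.00854).

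Kif7 and Kif27, related kinesin-4 proteins, moved in opposite directions. Kif7, which acts at the ciliary tip in hedgehog signalling, had a lowest, median and highest level of 1.61, 3.06 and 3.67 CPM in wild-type mice and 3.46, 4.09 and 5.25 CPM in R6/1 mice (log2 fold change 0.58 ± 0.15, edgeR adjusted p = 0.00682). Kif27, which serves motile cilia, had 9.23, 10.8 and 13.1 CPM in wild-type mice and 6.57, 7.53 and 9.44 CPM in R6/1 mice (log2 fold change -0.54 ± 0.09, edgeR adjusted p = 1.6e-04). For Kif27 a single R6/1 mouse, “good” mouse 4, reached above the lowest wild-type mouse. Kif7 shares 877 bases of exon and Kif27 shares 332 with antisense genes. Kif9, a kinesin of the beating cilium, was higher by 0.35 ± 0.11 (edgeR adjusted p = 0.0213), and so was Kif24, which controls the start of cilium growth, by 0.39 ± 0.13 (edgeR adjusted p = 0.0254). The Kif24 call was lost without wild-type “good” mouse 4 or wild-type “poor” mouse 2.

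The 8 markers of ependymal cells, which bear motile cilia on the ventricle wall, were all measured and none was called, with sums of 18.3 to 57.0 CPM in wild-type mice and 23.0 to 67.9 CPM in R6/1 mice. The highest of these sums, 67.9 CPM, was that of R6/1 “poor” mouse 1, which also had the highest level of Dynlrb2, at 4.19 CPM, and of Dync2h1. The part of ependymal cells in the ciliary genes was not tested.

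Each R6/1 group was next compared with the same 8 wild-type mice, so that both comparisons share their controls. For the “good” mutants, 20 of the 66 genes were called higher and 4 lower by edgeR, where 24.6% of all genes were called, 12.1% as higher and 12.4% as lower. For the “poor” mutants, 20 were called higher and 5 lower, where 28.5% of all genes were called, 13.5% as higher and 14.9% as lower. The medians of the log2 fold changes over the 66 genes were 0.09 and 0.13, beside 0.01 and 0.00 over all genes tested. DESeq2 called 23 genes higher and 8 lower in the “good” mutants and 22 and 5 in the “poor” mutants, where it called 26.5% and 31% of all genes. The edgeR counts of higher genes depended on the controls in both groups, and on a covariate for the libraries in the “good” mutants alone. With the set of libraries (1 to 8 or 9 to 16) as a covariate, 7 genes were called higher in the “good” mutants, beside 10.1% of all genes. In the “poor” mutants the same covariate gave 21, beside 14.6%. Within libraries 1 to 8 the genes called higher in the “good” mutants were 5, beside 8.47%. Against wild-type “good” mice alone they were 6, beside 5.79%, and for the “poor” mutants against wild-type “poor” mice alone 5, beside 8.48%. The counts also moved with single mice. Without R6/1 “good” mouse 1, 2 or 4 the genes called higher in R6/1 “good” mice were 10, 9 or 13, and without wild-type “good” mouse 2 those called lower were 7. Without R6/1 “poor” mouse 1 or 3 the genes called higher in R6/1 “poor” mice were 11 or 9. The share of all genes called without these mice was not counted.

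By role, the kinesins of cell division gave 6 higher and 0 lower in each of the R6/1 groups, and dynactin 2 higher and 0 lower in each. The genes were not all the same. Kif20a and Dctn5 were called in the “good” mutants alone, and Kif20b and Dctn2 in the “poor” mutants alone. Several calls were lost in the 12 fits that each left out 1 mouse. In “good” mutants Kif18a kept its call in 3 of these fits and Kif11 in 5, and in “poor” mutants Kifc5b kept it in 1. Kifc1 kept its call in all 12 in both groups. With the set of libraries as a covariate, Kif4, Kif11, Kifc5b and Kif18a lost their calls in “good” mutants, and Kifc1 and Kif20a kept theirs. For dynein the counts were 7 higher and 0 lower in the “good” mutants, and 7 higher and 1 lower in the “poor” mutants. With near-identical copies merged, the kinesins of cell division gave 5 higher in each group, and dynein also 5. Among all genes, 12.1% were called higher in the “good” and 13.5% in the “poor” mutants. Kif5c had -0.53 ± 0.06 in R6/1 “good” and -0.54 ± 0.07 in R6/1 “poor” mice. Kif17 had -0.58 ± 0.11 and -1.04 ± 0.11, and Kif27 had -0.46 ± 0.11 and -0.61 ± 0.11, with all of these called by edgeR. Kifc1 was higher by 0.93 ± 0.16 in R6/1 “good” mice (edgeR adjusted p = 6.5e-04) and by 0.53 ± 0.14 in R6/1 “poor” mice (edgeR adjusted p = 0.013).

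Some genes passed the threshold in 1 R6/1 group and not in all 8 R6/1 mice. Kif20a, a kinesin of cytokinesis, had 4.999, 4.61, 7.36 and 5.25 CPM in R6/1 “good” mice and 4.40, 4.49, 3.61 and 3.56 CPM in R6/1 “poor” mice. Its log2 fold change was 0.53 ± 0.15 in R6/1 “good” mice (edgeR adjusted p = 0.0152), a call lost without R6/1 “good” mouse 3, and 0.07 ± 0.13 in R6/1 “poor” mice (edgeR adjusted p = 0.743). Kif20a shares 1271 bases of exon with the more abundant Cdc23 on the opposite strand, which had 0.38 in R6/1 “good” and 0.25 in R6/1 “poor” mice. Dctn5 was called in R6/1 “good” mice alone, at 0.20 ± 0.06 (edgeR adjusted p = 0.0341), against 0.05 ± 0.06 in R6/1 “poor” mice, a call lost without any of 7 of the 12 mice: wild-type “good” 3, wild-type “poor” 1, 3 or 4, or R6/1 “good” 1, 2 or 4. Kif2a, which takes microtubule ends apart, was called in R6/1 “poor” mice alone, at 0.26 ± 0.08 (edgeR adjusted p = 0.0269), against 0.09 ± 0.08 in R6/1 “good” mice, and the call was lost without R6/1 “poor” mouse 1 or 3. Kif2a shares 1229 bases of exon with Dimt1 on the opposite strand. These differences between R6/1 groups are tested only in the direct comparison.

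**Figure D5:**
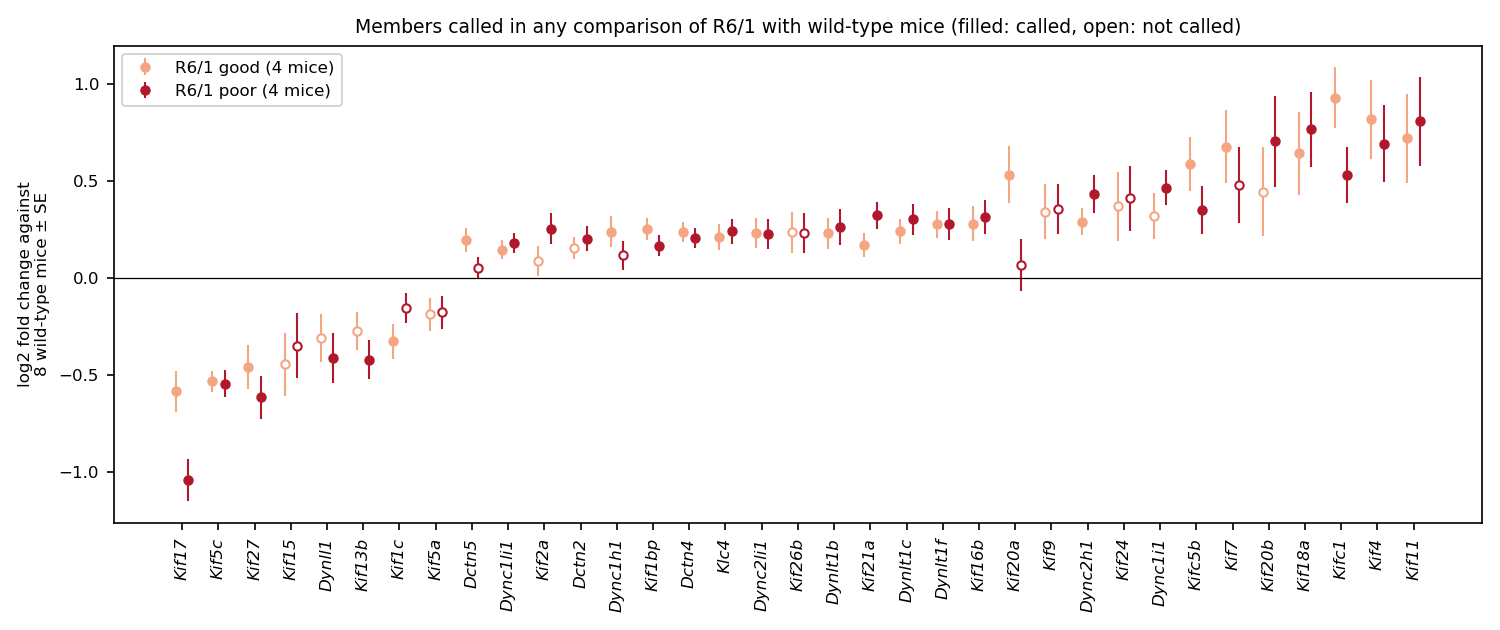
Log2 fold change against the same 8 wild-type mice, with standard error (vertical axis), in R6/1 “good” and R6/1 “poor” mice for the 35 motor genes called in any comparison with wild-type mice, where filled points are called and open points are not. The widest gaps between the 2 points of a gene are at Kif17, at -0.58 and -1.04, and Kif20a, at 0.53 and 0.07.

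The direct comparison of the “poor” with the “good” mutants asked whether motor genes follow performance among mutant mice. By edgeR 0 of the 66 genes were called, as were 0% of all genes. An unadjusted p under 0.05 was found for 8 of the 66 genes and 15.5% of all genes, and the smallest adjusted p among the 66 was 0.255, that of Kif17. DESeq2 called 0 of the 66 genes and 1.84% of all genes. The 5 genes with the smallest unadjusted p were Kif17, Kif26a, Dynlrb1, Klc2 and Kif20a.

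Kif17, whose values are given above, had a log2 difference of -0.44 ± 0.14 between “poor” and “good” mutants (edgeR adjusted p = 0.255). Kif26a, a kinesin-11 without motor activity that acts in growth factor signalling, had 8.28, 7.46, 7.07 and 5.50 CPM in R6/1 “good” mice and 8.59, 10.2, 8.27 and 10.3 CPM in R6/1 “poor” mice. The groups overlapped narrowly, and the difference was 0.41 ± 0.15 (edgeR adjusted p = 0.265). Dynlrb1 had 172, 160, 135 and 142 CPM in R6/1 “good” mice and 115, 147, 115 and 118 CPM in R6/1 “poor” mice, where a single “poor” mouse, number 2, lay among the “good” mice. Mouse 2 is also the only R6/1 “poor” mouse in libraries 1 to 8, and the difference of -0.28 ± 0.10 (edgeR adjusted p = 0.269) cannot be told apart from library number. Klc2 had 127, 122, 127 and 119 CPM in R6/1 “good” mice and 122, 142, 141 and 154 CPM in R6/1 “poor” mice, with a difference of 0.19 ± 0.07 (edgeR adjusted p = 0.281). Kif20a differed by -0.45 ± 0.18 (edgeR adjusted p = 0.286). In the same comparison 11 of the 12 markers of medium spiny neurons had an unadjusted p under 0.05, with a median log2 difference of -0.60.

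Among wild-type mice, “poor” against “good” gave 0 calls among the 66 genes and 0% of all genes by edgeR, with an unadjusted p under 0.05 for 2 of the 66 and 2.44% of all genes, and 0 of the 66 by DESeq2. The 2 genes were Kif18b, at 1.29 ± 0.38, which had 0.14 to 0.41 CPM in “good” and 0.55 to 0.73 CPM in “poor” mice, and Dctn3, at -0.31 ± 0.10. Both were named after their values were seen, and the adjusted p of each was 1 by edgeR.

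The interaction, which asks whether the difference between “poor” and “good” depends on genotype, was called for 0 of the 66 genes and 0% of all genes by edgeR, and for 0 of the 66 and 0.00516% of all genes by DESeq2. An unadjusted p under 0.05 was found for 1 of the 66 by edgeR, for 3 by DESeq2 and for 5.77% of all genes by edgeR. The edgeR gene was Klc2, with 0.26 ± 0.11 (adjusted p = 0.826), followed by Kif1c at 0.28 ± 0.14, Dynll2 at 0.18 ± 0.09, Kif26a at 0.43 ± 0.24 and Kif7 at -0.53 ± 0.30.

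Genes around the motors were counted in R6/1 against wild-type mice for comparison, where 17.2% of all genes were called higher and 17% lower. Of 47 cargo adaptors and motor regulators 12 were higher and 9 lower, with a median log2 fold change of 0.01. This list also holds the dynactin subunits without a Dctn symbol, such as Actr1a and Capzb. Called with the smallest p were Grip1, a receptor adaptor that binds kinesin-1, at 0.43 ± 0.06, Hook2, an activating adaptor of dynein, at 0.75 ± 0.11, the kinesin-1 adaptors Mapk8ip1 and Mapk8ip2 at -0.46 ± 0.07 and 0.24 ± 0.05, Snph, which anchors axonal mitochondria, at -0.62 ± 0.10, and Rhot2, a mitochondrial motor receptor, at -0.42 ± 0.08. Adaptors thus moved both ways. Of 14 tubulin genes 5 were higher and 1 was lower, with Tubb2a higher by 0.39 ± 0.10, Tubb6 by 0.31 ± 0.09, Tubb4b by 0.22 ± 0.07, Tuba1c by 0.24 ± 0.08 and Tuba1a by 0.20 ± 0.07. Tuba4a was lower, at -0.38 ± 0.08. Of 35 microtubule-associated proteins 11 were higher and 5 lower, among them Camsap3, which caps minus ends, at 0.44 ± 0.08, Map7d2, which recruits kinesin-1, at 0.38 ± 0.08, Clasp2, which stabilizes plus ends, at 0.18 ± 0.04, Dclk1 at -0.64 ± 0.10, Clip4 at -0.37 ± 0.06 and Stmn4 at -0.37 ± 0.07.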

How the data were processed

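The values are raw read counts per gene, whole numbers that the authors deposited for 55450 genes in 16 libraries, 1 mouse each. The authors used a stranded mRNA kit, mapped paired-end reads to GRCm38/mm10 with TopHat 1.0.1, and normalized counts with DESeq2, a step these values do not hold. How reads were counted is not given in the sources used here, nor are the strand setting and the annotation release. Symbols, exon lengths and overlaps came from GENCODE M21, and promoters from RefSeq.

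Genes reaching 10 counts in 4 or more libraries were tested by edgeR 4.0.16 (quasi-likelihood, robust dispersions, TMM) on the groups compared, with Benjamini-Hochberg adjustment over all 19363 genes and a threshold of 0.05. CPM used TMM scaling. DESeq2 1.42.0, R 4.3.3 and Python 3.11.15 were also used, and the fits were tested on simulated data.

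The members, lists and roles were chosen with earlier results of these data known. Named by rule were the kinesin-1, dynein and dynactin subunits, kinesins called in any comparison, the 5 smallest p for “poor” against “good” R6/1 mice and for the interaction, the highest and lowest level, and at most 6 called genes of each surrounding list. Kif1a, Kif1b, Kif3a, Kif3b, Kif3c, Kif21b, Kif18b and the other genes named were chosen after their values were seen. Of 24 pairs of mice with the same replicate number, 5 correlated above 0.1, so the numbers were not taken to pair mice. Alternatives were DESeq2, RLE size factors, no filter, a filter of 50 counts, no robust dispersions, a replicate block, 1 fit of all groups and controls of equal performance. Others were the set of libraries (1 to 8 or 9 to 16) as a covariate, each of these sets alone, and leaving out each mouse.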

Additional observations from a re-analysis of the deposited data

Results flagged for a closer look

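Of 204 groups of 4 mice examined, 9 held a mouse far from the other 3, and chance flags about 1 in 20 groups. R6/1 “poor” mouse 2, the only one of its group in libraries 1 to 8, had the highest Dynlrb1 level at 147 CPM (others 115 to 118), the highest Klc4 at 29.8 CPM (others 25.5 to 26.0) and the highest Kif15 at 3.33 CPM (others 2.35 to 2.496). R6/1 “good” mouse 3 had the highest Klc3 at 4.50 CPM (others 2.31 to 2.60) and the lowest Kif1bp at 146 CPM (others 164 to 167). R6/1 “good” mouse 4 had the highest Kif27 at 9.44 CPM (others 7.48 to 7.55). R6/1 “poor” mouse 4 had the highest Kif1bp at 162 CPM (others 147 to 149), and R6/1 “poor” mouse 3 had the lowest Dctn6 at 52.0 CPM (others 56.3 to 57.1). Wild-type “good” mouse 1 had the lowest Dync1li1 at 70.6 CPM (others 73.8 to 74.4).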

How the results depend on the processing

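No motor gene called in R6/1 against wild-type mice, or in either R6/1 group, changed direction under any alternative. Of the 32 genes called in R6/1 mice, 27 were called without each mouse, and 7 under every alternative, namely Kif5c, Kif17, Kif27, Kif13b, Kif21a, Kifc1 and Dync2h1. Within libraries 1 to 8 the calls were 7 higher and 4 lower, and within libraries 9 to 16, which hold R6/1 “poor” but no R6/1 “good” mice, 9 and 4. Leaving out each mouse gave 21 to 26 higher and 7 to 10 lower. For R6/1 “good” mice the genes called higher were 12 with no filter, 7 with the set of libraries as a covariate, 5 within libraries 1 to 8 and 6 against wild-type “good” mice, and 9 to 20 without each mouse. Those called lower were 8 with DESeq2, 2 against wild-type “good” mice, and 3 to 7 without each mouse. Of the 24 genes called in R6/1 “good” mice, 10 were called without each mouse and 4 under every alternative. Of the 25 genes called in R6/1 “poor” mice, 10 were called without each mouse. For R6/1 “poor” mice the genes called higher were 12 with no filter, 0 within libraries 1 to 8, where 1 R6/1 “poor” mouse stands alone and its spread is taken from the other groups, 9 within libraries 9 to 16, 5 against wild-type “poor” mice, and 9 to 20 without each mouse. Those called lower were 1 within libraries 1 to 8 and 4 to 6 without each mouse. With the replicate number as a block, 1 gene was called between “poor” and “good” mutants, Kif17 at -0.44 (edgeR adjusted p = 0.0494), where the block raised the calls over all genes from 0 to 96, and the calls in R6/1 against wild-type mice were 30 rather than 32. Every other setting gave 0 calls between “poor” and “good” mice and for the interaction, though within libraries 1 to 8, where 1 “poor” mouse of each genotype stands alone, a count of 0 says nothing about stability. The causes were not tested. Libraries 9 to 16 hold no R6/1 “good” mice, so neither their comparison with wild-type mice nor that with R6/1 “poor” mice was run there. DESeq2 gave no adjusted p for 4 motor genes between “poor” and “good” mutants. Depth limits the rarest genes most, such as Kif14 with 3 to 24 counts in a wild-type library.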
